A study of Mus musculus with 6 samples.

Results

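The BCL2 family of apoptosis regulators was examined in mouse hepatoma tumors with and without Sora treatment through 10 of the 26167 genes in the deposited tables. The 10 members were chosen by name and role: the antiapoptotic members Mcl1, Bcl2, Bcl2l1, and Bcl2l2, the effector Bak1, and the BH3-only members Bcl2l11, Bmf, Bad, Bid, and Pmaip1. All 10 had enough reads to be tested. Hepa1-6 cells, written Hep1-6 in the sample labels, are a mouse hepatoma line, and they were placed under the skin of female C57BL/6J mice aged 6 to 8 weeks. In the Sora group, the mice received 10 mg/kg of the multikinase inhibitor sorafenib (Sora) ip on days 9, 11, 13, and 15. The control group carried the same tumors without Sora, and what these mice were injected with and the day on which tumors were taken for RNA are not given in the sources used here. RNA was sequenced from 3 control tumors, numbered 1, 3, and 4, and 3 Sora-treated tumors, numbered 2, 3, and 4, with 1 library per tumor.

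BCL2 family proteins decide whether the outer membrane of the mitochondrion stays intact. The antiapoptotic members hold the effectors BAK and BAX and their activators in check. The BH3-only proteins respond to stress, loss of growth signals, or death receptors, and they either occupy the groove of the antiapoptotic members or activate the effectors directly. Once the effectors form pores, cytochrome c leaves the mitochondrion and caspases are activated. Liver cells depend on MCL1 and BCL-XL, the product of Bcl2l1, and many T cells depend on BCL2. MCL1 is a short-lived protein that is set largely by translation and degradation, and BIM, BMF, and BAD are also controlled by kinases, so RNA levels describe only a portion of this system.

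The depth was 31073830 to 36205814 counted reads per tumor. The count table held 5 of the 6 tumors, and the counts of Sora-treated tumor 4 were recovered from its deposited FPKM. Levels of 1 gene are given in CPM, the count of the gene relative to the total of its tumor after TMM scaling, which corrects for differences in RNA composition. The 10 hepatoma markers were all detected, and with edgeR 2 of them (Apoa1 and Hnf4a) were up-regulated and 2 (Alb and Ttr) were down-regulated in the Sora-treated tumors at an adjusted p under 0.05, beside 1.94% and 1.34% of all genes tested. The T-cell markers, of which 9 of 10 were in the table, sat on the lower side in all 9, with summed levels of 266 to 296 CPM in the control tumors and 212 to 227 CPM in the Sora-treated tumors. All 8 macrophage markers had a fold change below 0, 4 of them without overlap, beside 11.6% of all genes tested, and Mertk was down-regulated (adjusted p, 0.031 in edgeR). The summed macrophage markers were 1765 to 2127 CPM and 1480 to 1736 CPM. The summed fibroblast markers were 7486 to 7747 CPM and 5271 to 6635 CPM. Of these 7 markers, 3 were lower without overlap, the collagen genes Col1a1, Col1a2, and Col3a1, which made up most of the sum. The others, Dcn, Pdgfra, Lum, and Fap, overlapped between the groups, and none of the 7 was called in edgeR. The summed neutrophil markers overlapped (287 to 360 CPM and 306 to 359 CPM), with most of the sum from Mmp9, the 1 tested marker with a fold change below 0. The other 6 had a fold change above 0, 3 of them without overlap, beside 10.6% of all genes tested, and S100a9 was up-regulated (log2 fold change, 1.21; adjusted p, 0.042 in edgeR). Endothelial markers (267 to 310 CPM and 214 to 298 CPM), skin markers (288 to 995 CPM and 623 to 892 CPM), and muscle markers (160 to 223 CPM and 182 to 253 CPM) overlapped between the groups. B-cell markers summed to 18.4 to 20.7 CPM and 16.4 to 17.8 CPM, and Cr2 was at 0 in every tumor. The tumors hold all of these cells, and in bulk RNA a change in the number of cells of a type and a change in the RNA of each cell cannot be told apart.

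At an adjusted p under 0.05, none of the 10 members was up-regulated or down-regulated by edgeR, where 3.29% of the 16513 genes tested passed. At an unadjusted p under 0.05, 3 members were on the higher side (Bcl2l1, Bcl2l2, and Pmaip1) and 1 on the lower side (Bmf), beside 8.53% and 8.69% of all genes tested, or 17.2% in both directions. DESeq2 called 1 member, Bcl2l1, as higher, where it called 4.0% of its genes higher, and limma on log2(FPKM + 1) called no member and 1.61% of its genes. The groups did not overlap in CPM for 2 members, 1 higher (Bcl2l1) and 1 lower (Bak1), beside 10.6% and 11.6% of all genes tested, or 22.2% together. The median log2 fold change of the 10 members was -0.02, and that of all genes tested was -0.0004. Of the 10 members, 4 had a fold change above 0 and 6 below 0. A log2 fold change compares the Sora-treated tumors with the control tumors, so a value above 0 is a higher level in the Sora-treated tumors.

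**Figure D1:**
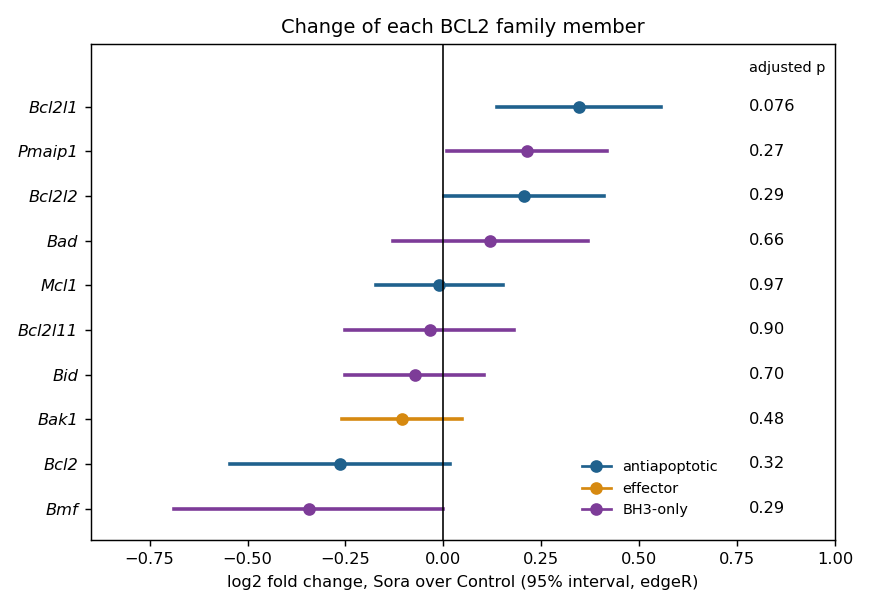
Log2 fold change of each BCL2 family member, Sora-treated over control tumors (x axis), from edgeR with 3 tumors per group; points are estimates, lines are 95% intervals, and the adjusted p is given at the right. Bcl2l1 lies highest, at 0.35 with an adjusted p of 0.076, Bmf lies lowest, at -0.34, and Mcl1 lies at -0.01.

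Bcl2l1, which encodes the antiapoptotic protein BCL-XL, had the smallest p among the members. Its level was 127, 135, and 130 CPM in control tumors 1, 3, and 4 and 168, 144, and 188 CPM in Sora-treated tumors 2, 3, and 4. Every Sora-treated tumor lay above every control tumor, and tumor 3 lay closest to the controls. The means were 131 ± 3.997 and 167 ± 22.0 CPM (SD, n = 3). The log2 fold change was 0.35 (SE, 0.10; 95% interval, 0.14 to 0.56), a ratio of 1.27. With edgeR the unadjusted p was 0.0039 and the adjusted p was 0.076, above the threshold. The adjusted p was 0.011 with DESeq2 and 0.024 in edgeR without a filter on low counts, where 2.26% of the genes were called higher. In edgeR it was 0.011 without Sora-treated tumor 3, where 3.52% were called higher. Without Sora-treated tumor 4 it was 0.29, with a log2 fold change of 0.25, and 0.0306% of the genes were called in either direction. The call for Bcl2l1 therefore depended on the tool, on the filter, and on which tumors were included. The fold change ran from 0.25 to 0.44 under the 18 alternatives tried for it. These reuse the same tumors, and with groups apart in CPM and in FPKM a sign above 0 was close to given beforehand.

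Bcl2l2 encodes BCL-W, a close antiapoptotic relative of BCL-XL. Its level was 40.6, 44.8, and 39.5 CPM in the control tumors and 53.4, 43.5, and 47.2 CPM in the Sora-treated tumors. Sora-treated tumors 2 and 4 lay above all controls, and Sora-treated tumor 3 lay within them. The log2 fold change was 0.21 (SE, 0.09; 95% interval, 0.00 to 0.41), with an unadjusted p of 0.049 and an adjusted p of 0.29 in edgeR. When a tumor was left out it ran from 0.12, without Sora-treated tumor 2, to 0.27, without Sora-treated tumor 3 (adjusted p, 0.70 and 0.12 in edgeR). In FPKM, which are scaled to total counts without TMM, the groups of Bcl2l2 did not overlap, at 10.6, 11.2, and 10.2 in the control tumors and 13.7, 11.2, and 11.7 in the Sora-treated tumors, where the values of both tumors 3 differed only in the next digit.

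Mcl1, the antiapoptotic member that binds BIM, NOXA, and BAK, had similar levels in the groups. Its level was 377, 367, and 344 CPM in the control tumors and 369, 346, and 365 CPM in the Sora-treated tumors, so the ranges lay nearly on top of each other. The log2 fold change was -0.01 (SE, 0.07; 95% interval, -0.17 to 0.15), with an adjusted p of 0.97 in edgeR. The interval leaves room for a level in the Sora-treated tumors from 0.888 to 1.11 times that of the control tumors, and larger changes of Mcl1 RNA lie outside it.

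Bcl2, the founding member of the family, was lower in Sora-treated tumors 2 and 4 and not in tumor 3. Its level was 24.8, 27.8, and 25.1 CPM in the control tumors and 19.2, 26.3, and 19.3 CPM in the Sora-treated tumors. The log2 fold change was -0.26 (SE, 0.13; 95% interval, -0.54 to 0.02), with an unadjusted p of 0.062 and an adjusted p of 0.32 in edgeR. Without Sora-treated tumor 3 it was -0.43 with an adjusted p of 0.030, in a fit in which 7.03% of all genes passed and 3.5% were called lower. Without Sora-treated tumor 2 or 4 it was -0.19 in both, with adjusted p of 0.68 and 0.67. T cells are rich in Bcl2, and the summed T-cell markers were lower in all 3 Sora-treated tumors. They were 227 CPM in Sora-treated tumor 3, the highest of that group and below the lowest control tumor at 266 CPM, and 6 of the 9 markers were lower without overlap between the groups, beside 11.6% of all genes. Cd8b1 was the 1 marker called, at an adjusted p of 0.018 in edgeR, beside 1.34% of all genes called lower. Their part in the level of Bcl2 was not tested.

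**Figure D2:**
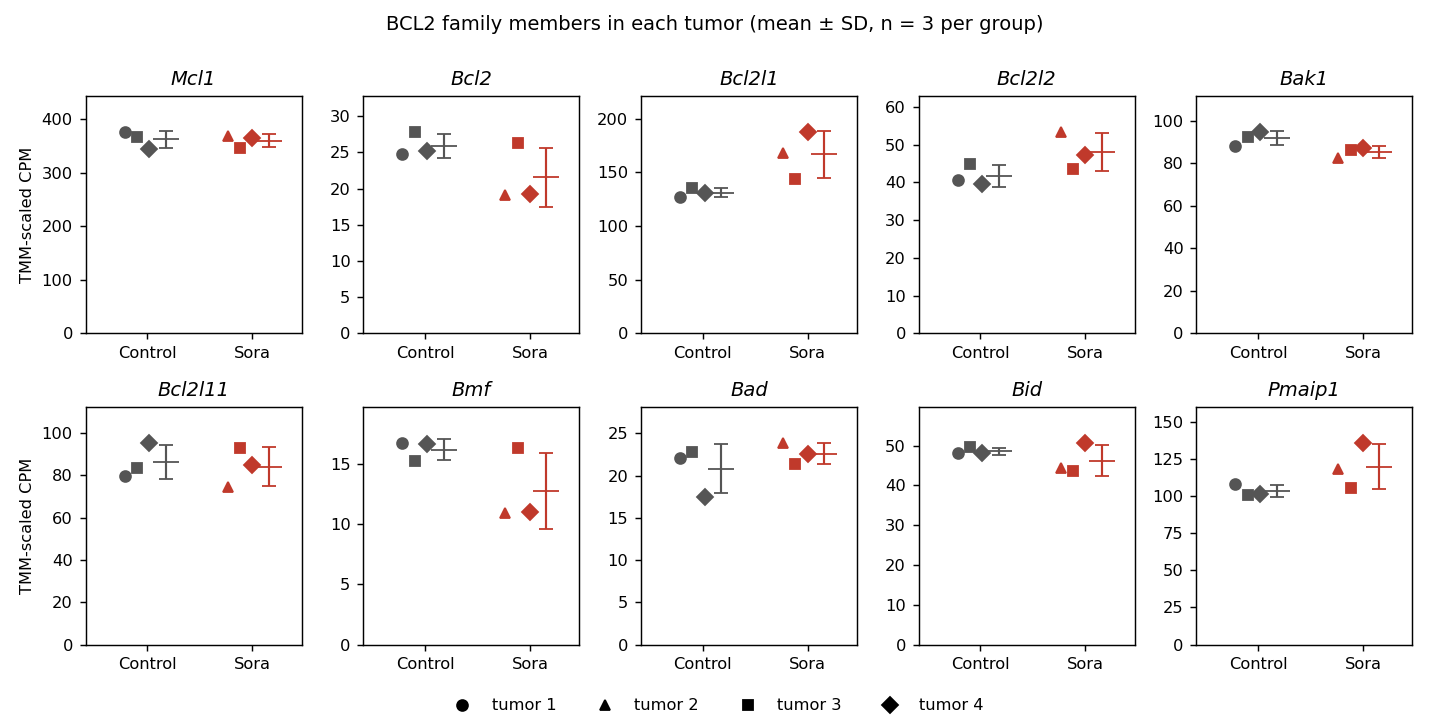
TMM-scaled CPM of the 10 BCL2 family members (y axes, each from 0) in the 3 control and 3 Sora-treated tumors; each symbol is a tumor, with its number given by the shape, and the bars show the mean and SD. For Bcl2 and Bmf, Sora-treated tumor 3 (squares, 26.3 and 16.3 CPM) sits among the controls while tumors 2 and 4 sit below them, and Bcl2l1 and Bak1 are the members whose groups are apart.

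Bak1 encodes BAK, an effector that sits in the mitochondrial membrane and forms the pore. Its level was 88.2, 92.3, and 94.7 CPM in the control tumors and 82.3, 86.1, and 87.3 CPM in the Sora-treated tumors. All Sora-treated tumors lay below all control tumors, with the highest of them, at 87.3 CPM, just under the lowest control at 88.2 CPM. The log2 fold change was -0.11 (SE, 0.07; 95% interval, -0.26 to 0.05), with an adjusted p of 0.48 in edgeR. Bax, the other main effector, was at 82.8 ± 7.98 and 89.4 ± 3.53 CPM (SD, n = 3), and its adjusted p was 0.55 in edgeR (log2 fold change, 0.11).

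Of the BH3-only members, Bmf, whose product is released from the actin motor complex under stress, had the lowest fold change. Its level was 16.7, 15.2, and 16.6 CPM in the control tumors and 10.9, 16.3, and 10.99 CPM in the Sora-treated tumors. As for Bcl2, Sora-treated tumors 2 and 4 lay below all control tumors and Sora-treated tumor 3 lay among them. Its log2 fold change was -0.34 (SE, 0.16; 95% interval, -0.69 to -0.00), with an unadjusted p of 0.049 and an adjusted p of 0.29 in edgeR. Without Sora-treated tumor 3 it was -0.57 with an adjusted p of 0.019, and without tumor 2 or tumor 4 it was -0.24 and -0.25 with adjusted p of 0.64 and 0.63.

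Pmaip1 encodes NOXA, a p53 target that binds MCL1 and speeds its degradation. Its level was 108, 101, and 102 CPM in the control tumors and 119, 106, and 136 CPM in the Sora-treated tumors. Sora-treated tumors 2 and 4 were above all controls, and tumor 3 was inside their range. Pmaip1 had a log2 fold change of 0.21 (SE, 0.09; 95% interval, 0.01 to 0.42), with an unadjusted p of 0.043 and an adjusted p of 0.27 in edgeR. When a tumor was left out it ran from 0.12 to 0.30, with adjusted p from 0.066 to 0.68 in edgeR.

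Bcl2l11, which encodes the direct activator BIM, was at 79.7, 83.5, and 95.2 CPM in the control tumors and 74.5, 93.0, and 84.6 CPM in the Sora-treated tumors. The groups overlapped over most of their range, and the log2 fold change was -0.04 (SE, 0.10; 95% interval, -0.25 to 0.18; adjusted p, 0.90 in edgeR). Bad, whose product is held by 14-3-3 proteins when growth factor kinases phosphorylate it, was at 22.1, 22.8, and 17.5 CPM in the control tumors and 23.8, 21.3, and 22.6 CPM in the Sora-treated tumors. Control tumor 4 was the low one of the 6, and the log2 fold change was 0.12 (SE, 0.11; 95% interval, -0.13 to 0.37; adjusted p, 0.66 in edgeR). Bid, which is cleaved by caspase-8 and so joins the death receptor route to mitochondria, was at 48.0, 49.6, and 48.2 CPM in the control tumors and 44.3, 43.6, and 50.6 CPM in the Sora-treated tumors. Sora-treated tumors 2 and 3 lay below the controls and tumor 4 above them, and the log2 fold change was -0.07 (SE, 0.08; 95% interval, -0.25 to 0.10; adjusted p, 0.70 in edgeR).

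The DNA just before the start of 3 members is shown, since Bcl2l1, Bmf, and Bcl2 had the fold changes farthest from 0. Each is the 250 bases before the most upstream start that RefSeq lists in GRCm38.p6, written 5′ to 3′ on the strand of the gene, and capitals mark matches on either strand to the GC box GGGCGG or the CCAAT box CCAAT. RefSeq windows were at hand for 9 of the 10 members (15 windows), and Pmaip1 had none.
Bcl2 (chr1:106714291-106714540, minus strand): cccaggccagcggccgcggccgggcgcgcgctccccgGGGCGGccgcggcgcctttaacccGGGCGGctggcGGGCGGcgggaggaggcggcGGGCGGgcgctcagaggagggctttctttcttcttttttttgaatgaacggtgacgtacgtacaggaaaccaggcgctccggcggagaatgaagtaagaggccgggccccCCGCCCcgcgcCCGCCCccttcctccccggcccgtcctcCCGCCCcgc
Bmf (chr2:118549687-118549936, minus strand): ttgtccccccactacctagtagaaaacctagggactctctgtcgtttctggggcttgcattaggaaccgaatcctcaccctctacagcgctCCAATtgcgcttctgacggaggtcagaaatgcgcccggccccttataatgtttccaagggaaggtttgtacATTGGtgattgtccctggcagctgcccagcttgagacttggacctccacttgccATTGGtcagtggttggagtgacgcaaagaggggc
Bcl2l1 (chr2:152831729-152831978, minus strand): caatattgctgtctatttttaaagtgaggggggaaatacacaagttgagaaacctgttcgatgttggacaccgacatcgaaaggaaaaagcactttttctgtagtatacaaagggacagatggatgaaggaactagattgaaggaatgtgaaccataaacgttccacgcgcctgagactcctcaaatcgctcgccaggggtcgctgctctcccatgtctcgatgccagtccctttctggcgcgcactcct
The Bcl2 window held 7 GC boxes and was 74.8% G or C, where the median of 32851 RefSeq windows was 52.4% and 32.7% of them held a GC box. The Bmf window held 3 CCAAT boxes, a motif found in 33.8% of all windows, and no GC box. The Bcl2l1 window held neither. A forkhead motif, GTAAACA, the kind bound by FOXO factors, which are known to drive Bcl2l11, occurred in 1 window of the members, the upstream window of Bcl2l11 (chr2:128125788-128126037, plus strand), and in 3.17% of all windows. None of the 15 windows held the TATA box TATAAA (12.4% of all windows), the CRE TGACGTCA (1.55%), the AP-1 site TGANTCA (6.75%), the ATF4 composite TGATGNAAN (3.44%), or the E-box CACGTG (6.02%). These are letter matches in short windows and not measured binding sites.

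Levels of different genes were compared in FPKM, which divide counts by gene length. In the control tumors, Bak1 was at 45.9 ± 1.48, Mcl1 at 41.7 ± 2.36, Bcl2l1 at 40.5 ± 0.207, and Pmaip1 at 39.2 ± 2.36 FPKM (SD, n = 3). Every control tumor had Bak1 above Mcl1, and the neighbors Mcl1 and Bcl2l1, and Bcl2l1 and Pmaip1, overlapped. Bid followed at 20.3 ± 0.199, Bad at 13.7 ± 1.83, Bcl2l2 at 10.7 ± 0.511, Bcl2l11 at 7.21 ± 0.686, Bcl2 at 3.54 ± 0.142, and Bmf at 2.90 ± 0.219 FPKM, each above the next in every control tumor.

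In the Sora-treated tumors, Bcl2l1 came first, at 51.1 ± 5.80 FPKM, ahead of Pmaip1 at 45.0 ± 4.78, Bak1 at 42.4 ± 1.01, and Mcl1 at 41.1 ± 1.33 FPKM (SD, n = 3). Across tumors, each of these 4 overlapped with its neighbor in that order, and within each of the 3 tumors Bcl2l1 was above Pmaip1. The lower members kept their order, with Bid at 19.1 ± 1.17, Bad at 14.8 ± 0.870, Bcl2l2 at 12.2 ± 1.33, Bcl2l11 at 6.98 ± 0.7998, Bcl2 at 2.93 ± 0.595, and Bmf at 2.27 ± 0.587 FPKM, and Bcl2 and Bmf overlapped across tumors while Bcl2 was above Bmf within each.

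The order depended on the gene lengths. The deposited FPKM imply a length of 8725 bases for Mcl1, where the exons of Mcl1 in GENCODE M21 cover 3418 bases and the whole gene in RefSeq spans 6236 bases. Over 19956 genes, 4.39% of the implied lengths equaled those of GENCODE M21, with a median ratio of 0.952. With the lengths of GENCODE M21, the same reads placed Mcl1 first in the control tumors, at 106 ± 6.02 on the scale of FPKM, with Bak1 at 38.2 ± 1.23, Pmaip1 at 38.1 ± 2.30, and Bcl2l1 at 28.6 ± 0.146 (SD, n = 3). The feature over which the reads of Mcl1 were counted is not known. If it was longer than the exons of GENCODE M21, as the implied length leaves possible, the new scale overstates the level of Mcl1. Bcl2 and Bmf were the lowest members on both scales, at 2.84 ± 0.114 and 3.09 ± 0.233 with GENCODE M21. A length is the same in every tumor, so the comparison of a single gene between the groups does not change with it, while shares, ratios of sums, and the level of any ratio between genes do.

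**Figure D3:**
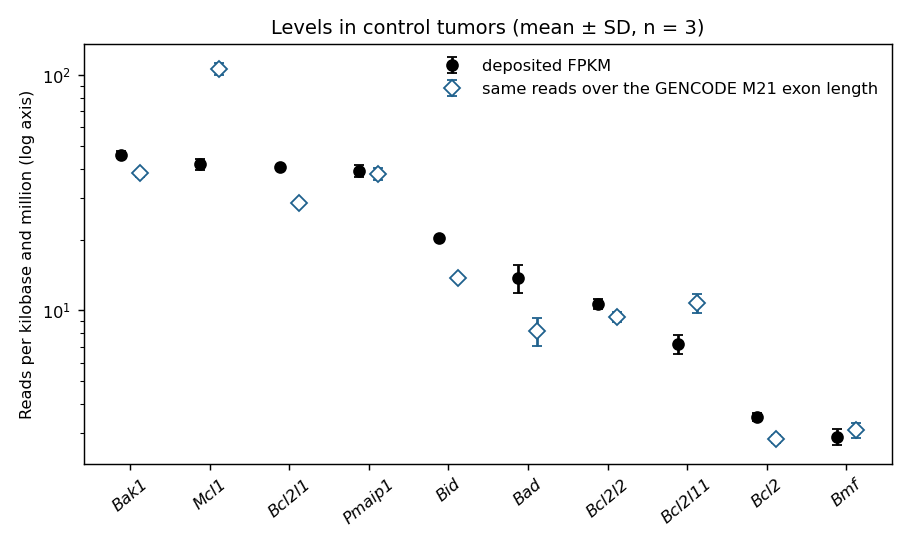
Levels of the 10 members in the control tumors on the scale of FPKM (y axis, log scale), as deposited FPKM (filled) and with the same reads over the exon length of GENCODE M21 (open); points are means and bars the SD of 3 tumors. Mcl1 moves from 41.7 to 106 between the scales, and Bcl2 and Bmf are lowest on both.

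The make-up of the antiapoptotic group was described by the share of each gene in its summed FPKM, without a test. The sum was 96.4 ± 2.46 FPKM in the control tumors and 107 ± 6.605 FPKM in the Sora-treated tumors (SD, n = 3). Mcl1 made up 44.9%, 42.4%, and 42.3% of it in the control tumors and 38.3%, 40.2%, and 36.5% in the Sora-treated tumors. Bcl2l1 made up 40.8%, 42.2%, and 43.2% in the control tumors and 47.0%, 44.9%, and 50.6% in the Sora-treated tumors. Neither gene's shares overlapped between the groups, while the level of Mcl1 itself did. Shares of a sum are tied to each other, so the lower share of Mcl1 follows mostly from the higher level of Bcl2l1. It is not a separate result about Mcl1. Among the BH3-only members the sum was 83.3 ± 3.28 and 88.1 ± 4.995 FPKM, Pmaip1 made up 47.0% ± 1.22 and 50.9% ± 2.59 of it, and Bid made up 24.4% ± 0.708 and 21.7% ± 0.425. The shares rest on the gene lengths. With the lengths of GENCODE M21, Mcl1 made up 72.2% ± 1.16 of the antiapoptotic sum in the control tumors and 68.1% ± 1.59 in the Sora-treated tumors, and Bcl2l1 made up 19.5% ± 0.844 and 23.4% ± 1.99 (SD, n = 3). Mcl1 far exceeded Bcl2l1 on that scale, which may overstate Mcl1 as said above.

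Ratios between members that bind each other were taken within each tumor. The log2 ratio of Pmaip1 to Mcl1 FPKM was -0.08, -0.14, and -0.04 in the control tumors and 0.08, 0.00, and 0.29 in the Sora-treated tumors, a difference of 0.22. All 3 Sora-treated tumors lay above the controls in this ratio, with tumor 3, at 0.00, close to the highest control, at -0.04. How often the ratios of other gene pairs lie apart was not computed, and the level of Pmaip1 itself overlapped between the groups. With the lengths of GENCODE M21 the difference is the same and the values are -1.48, -1.54, and -1.44 in the control tumors and -1.31, -1.39, and -1.10 in the Sora-treated tumors, so how near the levels of Pmaip1 and Mcl1 are to each other rests on the length. The log2 ratio of Bcl2l11 to Mcl1 differed by -0.03 and that of Bad to the sum of Bcl2, Bcl2l1, and Bcl2l2 by -0.16, and both overlapped between the groups. The log2 ratio of the summed BH3-only to the summed antiapoptotic members was -0.18, -0.25, and -0.21 in the control tumors and -0.34, -0.26, and -0.25 in the Sora-treated tumors. The groups of this last ratio differed by -0.07 and were set apart only in the next digit, since control tumor 3 and Sora-treated tumor 4 were both at -0.25. With the lengths of GENCODE M21 its difference turned to 0.019 and the groups overlapped, so no direction is given for it. No p is given for ratios, since the members were chosen with results of these data known.

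The other genes of the pathway were taken from 8 lists with 87 genes, of which 85 were tested. Hrk and Bcl2l10 had at most 1 and 2 reads in a tumor and were left out. With edgeR, 3 of the 85 genes were up-regulated and 1 was down-regulated at an adjusted p under 0.05, beside 1.94% and 1.34% of all genes tested, and the median log2 fold change was -0.01. At an unadjusted p under 0.05, 11 were higher and 8 were lower, where 8.53% and 8.69% of all genes tested were.

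Ddit3 encodes CHOP, a transcription factor of the endoplasmic reticulum stress response that can induce Bcl2l11 and Bbc3. It was at 27.0, 41.2, and 28.1 CPM in the control tumors and 53.0, 56.9, and 80.5 CPM in the Sora-treated tumors, with a log2 fold change of 0.98 (SE, 0.18) and an adjusted p of 0.021 in edgeR. All Sora-treated tumors were above all controls, including tumor 3. Leaving out control tumor 1, control tumor 4, or Sora-treated tumor 4 raised the adjusted p to 0.065, 0.081, and 0.10, and a robust dispersion raised it to 0.084. Of the 9 regulators of BH3-only genes, Ddit3 was the 1 that was called. Atf4, its partner in the same response, was at 177 ± 15.4 and 211 ± 22.3 CPM (log2 fold change, 0.25; adjusted p, 0.19 in edgeR). Trp53, the activator of Pmaip1 and Bbc3, was at 157 ± 20.3 and 156 ± 13.4 CPM, and Foxo3, a known activator of Bcl2l11, was at 74.1 ± 5.81 and 73.7 ± 7.55 CPM. Bbc3, which encodes PUMA, was at 9.82 ± 1.26 and 8.77 ± 0.858 CPM (adjusted p, 0.64 in edgeR).

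Of the 12 partners at the outer membrane and the endoplasmic reticulum, the calcium channels Itpr3 and Itpr2, which BCL2 and BCL-XL bind, were called in opposite directions. Itpr3 was at 178, 195, and 194 CPM in the control tumors and 262, 247, and 287 CPM in the Sora-treated tumors (log2 fold change, 0.49; SE, 0.08; adjusted p, 0.015 in edgeR). Itpr2 was at 70.3, 75.4, and 72.7 CPM in the control tumors and 44.1, 56.6, and 47.3 CPM in the Sora-treated tumors (log2 fold change, -0.56; SE, 0.09; adjusted p, 0.016 in edgeR). The groups were apart for both genes in all 6 tumors. Without control tumor 1 or Sora-treated tumor 4 the adjusted p of Itpr3 was 0.053 and 0.091, and without control tumor 4, Sora-treated tumor 2, or Sora-treated tumor 4 that of Itpr2 was 0.051, 0.063, and 0.10.

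Of the 9 genes of MCL1 turnover and translation, Eif4ebp1, which encodes a repressor of cap-dependent translation that mTORC1 inactivates, was up-regulated. It was at 80.7, 100.4, and 89.9 CPM in the control tumors and 122, 112, and 131 CPM in the Sora-treated tumors (log2 fold change, 0.43; SE, 0.09; adjusted p, 0.039 in edgeR). The call was lost without control tumor 1, control tumor 4, Sora-treated tumor 2, or Sora-treated tumor 4, at an adjusted p of 0.12, 0.10, 0.11, and 0.18, and with limma on log2(FPKM + 1), at 0.064. Usp13, a deubiquitinase of MCL1, was at 1.66 ± 0.439 and 2.31 ± 0.322 CPM, and the kinase gene Gsk3a was at 83.7 ± 1.11 and 90.3 ± 3.30 CPM, with adjusted p of 0.46 and 0.45 in edgeR.

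**Figure D4:**
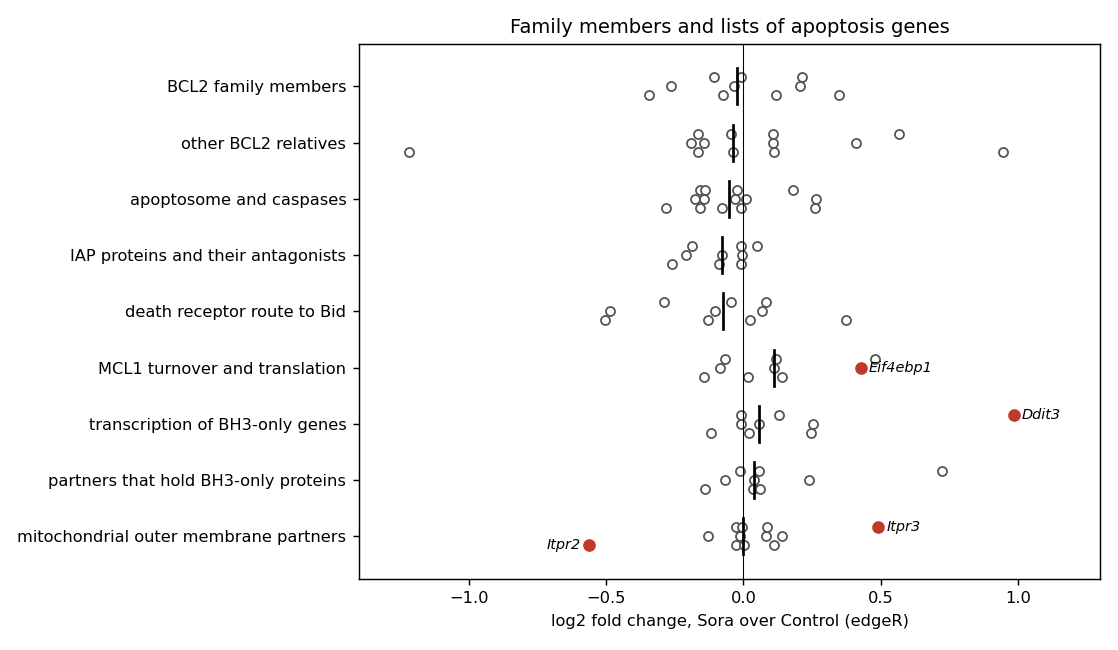
Log2 fold change of each tested gene, Sora-treated over control tumors (x axis, edgeR), for the 10 members and 8 lists of apoptosis genes (rows); open circles missed and filled circles passed an adjusted p under 0.05, and the vertical bars mark the medians. The medians of the lists lie between -0.08 and 0.11, and 4 genes passed, Ddit3, Itpr3, and Eif4ebp1 on the higher side and Itpr2 on the lower side.

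In the 5 other lists no gene passed an adjusted p under 0.05 in edgeR. Of the 13 other BCL2 relatives tested, 3 were higher at an unadjusted p under 0.05, beside 8.53% of all genes, among them Bcl2l14 (8.71 ± 1.03 and 12.9 ± 3.44 CPM; adjusted p, 0.14, and 0.045 with DESeq2, 0.048 without a filter, and 0.026 without Sora-treated tumor 3) and the low-level gene Bcl2l15 (0.631 ± 0.0618 and 1.22 ± 0.617 CPM; adjusted p, 0.28). Of the 10 genes of the death receptor route to Bid, Tnfsf10, the ligand TRAIL, was at 22.9 ± 0.516 and 16.1 ± 3.25 CPM (log2 fold change, -0.51; adjusted p, 0.062), and Cflar, the caspase-8 inhibitor c-FLIP, was at 149 ± 5.58 and 193 ± 26.3 CPM (log2 fold change, 0.37; adjusted p, 0.065). DESeq2 gave adjusted p of 0.011 and 0.0058, and over all alternatives the adjusted p ranged from 0.0046 to 0.41 for Tnfsf10 and from 0.0056 to 0.45 for Cflar. Of the 14 apoptosome and caspase genes, 10 had a fold change below 0, with Casp12 at 60.4 ± 0.663 and 49.6 ± 5.13 CPM (adjusted p, 0.10) and the nuclease gene Endog at 5.47 ± 0.512 and 6.55 ± 0.358 CPM (adjusted p, 0.46). Of the 9 IAP genes, which restrain caspases, and their antagonists, 8 had a fold change below 0, with Birc2 at 64.8 ± 0.723 and 56.9 ± 3.43 CPM (adjusted p, 0.21) and Birc3 at 72.3 ± 2.62 and 68.0 ± 1.07 CPM (adjusted p, 0.57). Of the 9 genes whose products hold BH3-only proteins, 1 was higher at an unadjusted p under 0.05, Ywhag, a 14-3-3 protein, at 454 ± 18.1 and 536 ± 52.7 CPM (adjusted p, 0.18). The near-identical copies Bcl2a1a, Bcl2a1b, and Bcl2a1d share reads, and their separate levels are uncertain.

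**Figure D5:**
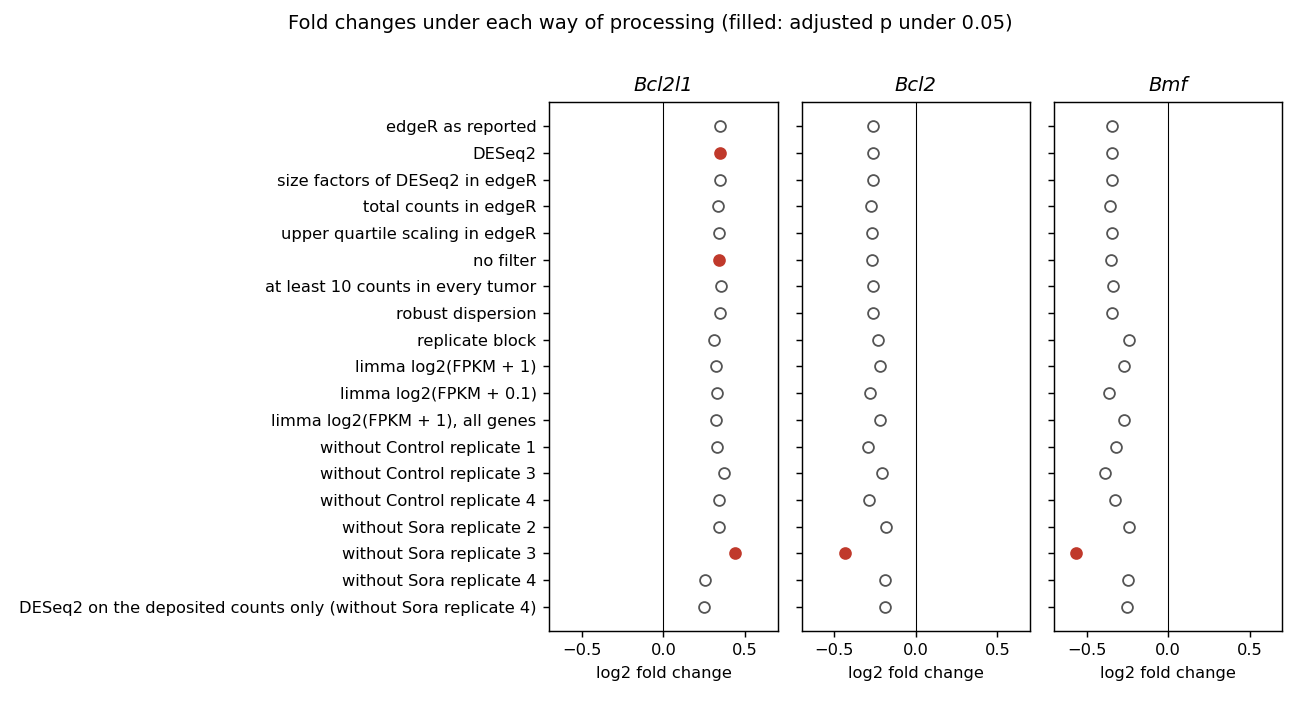
Log2 fold changes (x axes) of Bcl2l1, Bcl2, and Bmf under the main fit and each alternative (rows); filled circles passed an adjusted p under 0.05. Bcl2l1 stays between 0.25 and 0.44 and is called in 3 alternatives, and Bcl2 and Bmf are called only without Sora-treated tumor 3, at -0.43 and -0.57.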

How the data were processed

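The sample labels gave the groups, with 1 library per tumor, and do not say whether each tumor came from its own mouse, so p-values measure the spread between these tumors. The authors deposited raw read counts per gene for 5 of the tumors and FPKM, which scale each count to the gene's length and the tumor's total, for all 6. The study's text names Bowtie2, GRCm38, and an expectation maximization algorithm for FPKM, and the submitters' processing notes name fastp, HISAT2, HTSeq, R 3.2.0, DESeq2, and GRCm39. Which of these made the tables, the annotation, and the use of strand are not given in the sources used here, so overlapping genes cannot be told apart. Genes were matched by symbol.

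In each of the 5 tumors with both values, the count of every gene with a known length was returned by the FPKM with a single length for each gene and the tumor's total, within 0.001 of a whole number. The counts of Sora-treated tumor 4 were recovered in this way for 20951 genes, and 342 genes without a known length (512 reads) were left at 0. A gene needed 10 or more counts in 3 or more tumors and was then tested with edgeR 4.0.16 (TMM, glmQLFit, glmQLFTest, all 6 tumors, no covariate) in R 4.3.3, with Benjamini-Hochberg adjustment over the 16513 genes. Intervals are 95%. The alternatives used DESeq2 1.42.0, limma 3.58.1 on log2(FPKM + 1) or log2(FPKM + 0.1), other scalings and filters, a replicate block, and each tumor left out. At the depth of these libraries each member had at least 340 reads in each tumor. The scripts were tested on simulated data.

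The members, the lists, and the tests were chosen with earlier results of these data known. Named pathway genes were those with an adjusted p under 0.05 and, beside these, in each list the 2 largest changes among genes whose groups did not overlap. Atf4, Trp53, Foxo3, Bbc3, and Bax were added for their role after values were seen.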

Additional observations from a re-analysis of the deposited data

How the results depend on the processing

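The 18 alternatives for each of the 10 members gave 180 values, of which 175 stayed on the same side of the threshold and 5 passed it. Mcl1 kept the sign of its fold change in 15 and Bcl2l11 in 16 of their 18 alternatives, and the other members kept theirs in all 18. The number of members called higher was 0 in edgeR, 1 with DESeq2, 1 without a filter on low counts, 3 at an unadjusted p, and 0 to 1 when a tumor was left out, and the number called lower was 0, 1 at an unadjusted p, and 0 to 2 when a tumor was left out, the 2 being Bcl2 and Bmf without Sora-treated tumor 3. The number of pathway genes called higher was 3 in edgeR, 6 with DESeq2 (4.0% of all genes), 6 without a filter (2.26%), 0 with limma on log2(FPKM + 0.1), 0 with limma on all genes, and 0 to 7 when a tumor was left out. The number called lower was 1 in edgeR, 2 with DESeq2 (3.71% of all genes), 2 without a filter (2.28%), 2 with a robust dispersion (1.74%), 0 with limma on log2(FPKM + 0.1), 0 with limma on all genes, and 0 to 2 when a tumor was left out. Limma on all genes called 0.0% of the genes, and edgeR without Sora-treated tumor 4 called 0.0306%, so a call lost there was lost with nearly all others; the cause was not tested. DESeq2 on the deposited counts only, an alternative chosen after seeing the data, called 2 pathway genes higher and 2 lower, beside 1.65% and 1.35% of all genes. The length of GENCODE M21, also chosen after seeing the data, turned the difference of the summed BH3-only to antiapoptotic ratio from -0.07 to 0.019.

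The replicate numbers 3 and 4 occur in both groups, while number 1 occurs only among the control tumors and number 2 only among the Sora-treated tumors. Tumors with the same number did not deviate together (correlations of -0.03 and -0.07, beside 0.20 and 0.15 for unlike numbers), so the numbers were not taken as pairs, and a shared cage or day was not tested. Under a replicate block, tumors 1 and 2 carry no weight in the group difference, which rests on tumors 3 and 4 of both groups alone. Calls kept, lost, or gained there are therefore not those of a fit of all tumors. With the replicate block, 0 members were called higher and 0 lower, 2 pathway genes were called higher and 0 lower, where 0.757% of all genes passed. Under it Ddit3 kept its call (adjusted p, 0.044), and Eif4ebp1 (0.35), Itpr3 (0.16), and Itpr2 (0.092) did not, all in edgeR. The other gene called higher was Sfn, a 14-3-3 gene that was not called without the block (adjusted p, 0.042 with it and 0.41 without it) and is named here after its values were seen. Sfn was highest in control tumor 1 and Sora-treated tumor 2, at 42.9 and 67.9 CPM, the tumors without weight under the block. The skin markers Krt5, Krt14, Trp63, and Dsg3 were also highest in these tumors, while Krt1 and Krt10 were not. Their part in the level of Sfn was not tested.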

Other observations

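The 3 genes most like Mcl1 over the 6 tumors, by Pearson correlation of log2(CPM + 1) among 14114 genes with a mean of at least 1 CPM, were Rccd1 (0.977), Sub1 (0.976), and Mcf2l (0.975). They were picked as the highest of many values over 6 libraries of similar depth, and this is a description. Sub1, a transcription coactivator gene, was at 163, 154, and 136 CPM in the control tumors and 157, 130, and 149 CPM in the Sora-treated tumors. Control tumor 4 and Sora-treated tumor 3 were the low tumors for Sub1, as they were for Mcl1. Among the members, Bcl2l11 ran opposite to Mcl1 over the 6 tumors (correlation, -0.90), with its highest levels in those same tumors, at 95.2 and 93.0 CPM. Bad was at 0.75, and the other members were between -0.37 and 0.38.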
